A study of Mus musculus with 14 samples.

Results

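The regions described here are the distal intronic peaks of acetylated histone H3 (H3K27ac) in the mouse retina at embryonic day 14 (E14). A peak of the E14 list was taken as a member when its midpoint lay inside a gene body of GENCODE vM1, in no exon, and more than 5000 bp from every annotated transcription start site (TSS) on either side. On chromosomes 1 to 19 of the mm9 assembly 901 of 13079 peaks met this rule, or 6.89% (95% Wilson interval 6.47 to 7.34%), and the whole list with the sex chromosomes held 13463 peaks. The rule uses position alone, not signal, length or sequence, although it was set with earlier results of these data known.

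Acetylation of histone H3 at this lysine is laid down by the co-activators p300 and CBP and marks active promoters and active enhancers. Introns, above all the long introns of developmental genes, are a common place for enhancers, which can act on the promoter of the gene that holds them or on other genes nearby. In the embryonic retina the multipotent progenitors divide while the first neurons, among them ganglion cells, are born, and the genes of the eye field, of patterning signals and of neurogenesis are controlled largely by such distal elements.

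The sample was chromatin of CD1 mice at embryonic day 14. GEO describes the cells as retinal progenitor cells (RPCs), while the methods of the study give whole dissected retinas as the material for ChIP. The cell content was not measured here, and a weak signal from few cells with the mark cannot be told apart from a low level of the mark in many. No allele or treatment separates groups in this list: the reads of 2 replicate ChIP libraries were pooled and compared with 1 isotype control. After removal of duplicates the list rests on 113543038 ChIP tags and 9210563 control tags, a ratio of 12.3. With 1 pooled list and no replicate values, no test of a difference between conditions was possible. Intervals are given for shares (Wilson) and medians (exact, from order statistics), cover counting error over regions only, and treat neighbouring peaks as independent, which they are not.

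Central sequences of 5 members with high pileup are shown first, since CpG content differed between the 10 members with the highest pileup and most others, and also among these 5. These are among the members with the highest mean pileup whose host gene is on a list of developmental, chromatin or RNA-binding genes. Each is the central 300 bases, written 5′ to 3′ on the plus strand of mm9, and capitals mark matches on either strand to the letters of 9 short motifs. The motifs were TAATTA (homeodomain core), CAGCTG and CAGATG (E-boxes bound by basic helix-loop-helix factors), ACAAAG and ACAATG (cores bound by SOX factors, the former also by TCF factors), GGATTA (OTX and CRX), TGACTCA (AP-1), GGGCGG (the GC box of SP factors) and the nuclear factor I palindrome, TGGC and GCCA with 5 bases between them.
Tcf20: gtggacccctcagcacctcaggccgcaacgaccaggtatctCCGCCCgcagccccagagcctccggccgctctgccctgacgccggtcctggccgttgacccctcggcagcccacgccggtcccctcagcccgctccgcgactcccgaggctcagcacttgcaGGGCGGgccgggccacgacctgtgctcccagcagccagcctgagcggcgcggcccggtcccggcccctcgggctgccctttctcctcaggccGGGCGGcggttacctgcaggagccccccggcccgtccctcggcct
Gli2: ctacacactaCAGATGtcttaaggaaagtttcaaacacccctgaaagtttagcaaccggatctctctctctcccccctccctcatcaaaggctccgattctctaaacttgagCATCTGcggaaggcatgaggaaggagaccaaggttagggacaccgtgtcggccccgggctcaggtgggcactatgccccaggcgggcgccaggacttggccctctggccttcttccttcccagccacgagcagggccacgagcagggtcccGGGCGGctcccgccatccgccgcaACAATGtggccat
Igf2bp1: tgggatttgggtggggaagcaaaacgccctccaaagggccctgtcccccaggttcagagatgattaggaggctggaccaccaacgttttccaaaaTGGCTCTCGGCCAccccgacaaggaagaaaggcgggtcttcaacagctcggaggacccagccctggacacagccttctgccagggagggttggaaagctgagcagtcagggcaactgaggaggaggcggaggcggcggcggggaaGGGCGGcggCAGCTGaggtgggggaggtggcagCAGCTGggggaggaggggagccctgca
Arid1b: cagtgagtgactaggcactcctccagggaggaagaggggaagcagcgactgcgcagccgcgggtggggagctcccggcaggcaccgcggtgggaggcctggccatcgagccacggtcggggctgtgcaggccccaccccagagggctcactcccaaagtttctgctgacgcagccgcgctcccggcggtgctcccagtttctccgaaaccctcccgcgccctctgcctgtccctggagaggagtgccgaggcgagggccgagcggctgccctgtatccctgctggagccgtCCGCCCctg
Fgfr2: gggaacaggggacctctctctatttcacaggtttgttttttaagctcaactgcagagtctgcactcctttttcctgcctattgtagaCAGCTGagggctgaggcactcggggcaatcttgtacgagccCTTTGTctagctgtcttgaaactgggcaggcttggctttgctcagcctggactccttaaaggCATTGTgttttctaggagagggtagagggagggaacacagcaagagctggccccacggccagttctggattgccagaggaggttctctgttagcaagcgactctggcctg

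The Tcf20 window (chr15:82729664-82729963) lay in the first intron of a transcriptional co-regulator gene. It was 76.0% GC, with 31 CG dinucleotides and 3 GC boxes. The Gli2 window (chr1:120944351-120944650) lay in the first intron of a transcription factor gene of the Hedgehog pathway. It held 15 CG dinucleotides, 2 matches to CAGATG, 1 to ACAATG and 1 GC box. The window of Igf2bp1 (chr11:95852148-95852447), which encodes a fetal mRNA-binding protein, had 2 CAGCTG E-boxes, 1 GC box and the only nuclear factor I palindrome among these 5. Arid1b (chr17:5189764-5190063), a subunit of the BAF chromatin remodelling complex, had 1 GC box and none of the other motifs. The last window (chr7:137737442-137737741) had the lowest GC content of the 5, with 53.0% GC, 4 CG dinucleotides and 1 match to each of the SOX cores and to the E-box CAGCTG. Fold enrichment, the pileup relative to the control, was 5.22 for the Gli2 member, 4.7 for Igf2bp1 and 4.58 for Tcf20, but only 3.21 for Arid1b and 2.76 for the last, which was close to the lowest of all members (2.73), so these 2 were high in pileup alone. By the criterion for CpG-rich peaks given later, only the Tcf20 and Gli2 members of these 5 were CpG-rich over their whole length, with CpG ratios of 0.787 and 0.813, against 0.434 for Igf2bp1, 0.492 for Arid1b and 0.151 for the last. The midpoint of the last member lies both in Tacc2 and in an intron of 2.96 Mb of an Fgfr2 gene model that reads through its neighbours, so the host name is uncertain.

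The members were weaker than promoter peaks and slightly weaker than distal intergenic peaks. Pileup is the mean number of ChIP fragments over the bases of a peak, brought to the depth of the control library. The median pileup of the members was 9.22 (95% interval 9.0 to 9.38, n = 901), with a range from 6.0 to 26.3. The 10090 peaks with a midpoint within 1000 bp of a TSS had a median of 16.4, and 97.7% of the members lay below it. The 1343 distal intergenic peaks had a median of 10.2 (interval 10 to 10.4), and 65.3% of the members lay below that value. The intervals of the members and of the intergenic peaks did not overlap, with a ratio of medians of 0.903.

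Fold enrichment, in which that pileup is divided by the background of the isotype control around the peak, gave the same order with smaller gaps. Its median was 3.68 over the members (3.65 to 3.71), 3.86 over the intergenic peaks (3.81 to 3.9) and 4.71 over the promoter peaks (4.68 to 4.74). The local background implied by the 2 values was itself lowest at the members, with a median of 1.71 against 1.83 at intergenic and 2.55 at promoter peaks. Across the 901 members pileup and this background rose together (Spearman's rho 0.782), a description over regions of 1 pooled list in which the background was computed back from pileup and fold enrichment. Pileup also rose with GC content (rho 0.442), whereas fold enrichment did not (rho -0.0021).

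In length the members resembled the other distal peaks. Their median was 841 bp (779 to 886), against 790 bp (755 to 829) for intergenic and 1071 bp (1056 to 1086) for promoter peaks. The shortest possible region, of the fragment length that the peak caller had estimated, was found at 6 members. At the other end 34 members were longer than 3000 bp, and together the members covered 940330 bp. Peaks between 1000 and 5000 bp from a TSS had a median length of 946.5 bp and a median pileup of 11.3, above the members in both values.

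**Figure D1:**
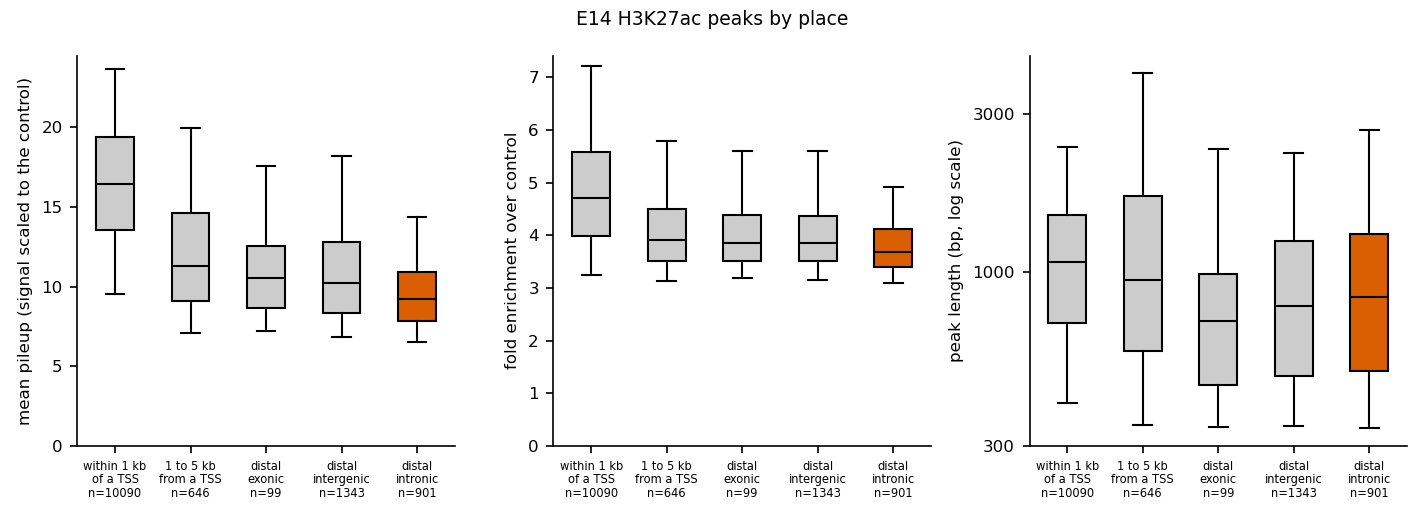
Mean pileup, fold enrichment and peak length (log scale) of the E14 H3K27ac peaks on chromosomes 1 to 19 by place. Boxes give the quartiles and the median and whiskers the 5th and 95th percentiles over peaks; the distal intronic peaks (orange) have the lowest median pileup, 9.22, and fold enrichment, 3.68, of the 5 classes.

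Few members met stricter limits of at least 4-fold enrichment with a q no higher than 0.001. These take 2 of the thresholds that the study set for high-confidence peaks but not its requirement of replicates or its p threshold, and they were applied to means over regions of 1 pooled list. They were met by 196 members (21.8%, 19.2 to 24.6%), against 64.1% of all peaks on chromosomes 1 to 19, 34.4% of the intergenic and 73.7% of the promoter peaks. The −log10 of q of a broad region is a mean over its bases. The q computed back from it was above 0.01 in 387 members (43.0%), against 11.5% of all peaks. The weakest reached 0.0973. Such members rest on a modest excess over a shallow control. At the distance limit of the rule itself, the 3 members just inside were in Zmynd8 (5014 bp from a TSS, pileup 9.87), Tbx2 (5154 bp, 11.8) and Mrps33 (5179 bp, 7.9). The 3 intronic peaks just outside were in Anks1 (4995 bp, 9.33), Slc8a3 (4977 bp, 7.5) and Nuak2 (4933 bp, 13.3).

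The strongest members differed from the others in base composition. A peak was called CpG-rich when its GC content was at least 50% and its CpG count at least 0.6 of the number expected from its C and G content, as in CpG islands, the unmethylated CpG-dense sequences typical of promoters. Of the 901 members 62 were CpG-rich (6.88%, 5.4 to 8.72%). The share was 22.0% of intergenic peaks, 82.0% of promoter peaks and 68.0% of all peaks. The 62 CpG-rich members had a median pileup of 12.6 (11.6 to 14.1) and a median fold enrichment of 4.3 (3.85 to 4.65), against 9.01 (8.83 to 9.24) and 3.67 (3.63 to 3.7) in the other 839. They included 9 of the 10 members with the highest pileup and 9 of the 10 with the highest fold enrichment, but none of the 10 longest. The stricter limits were met by 36 of them (58.1%) and by 160 of the others (19.1%).

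**Figure D2:**
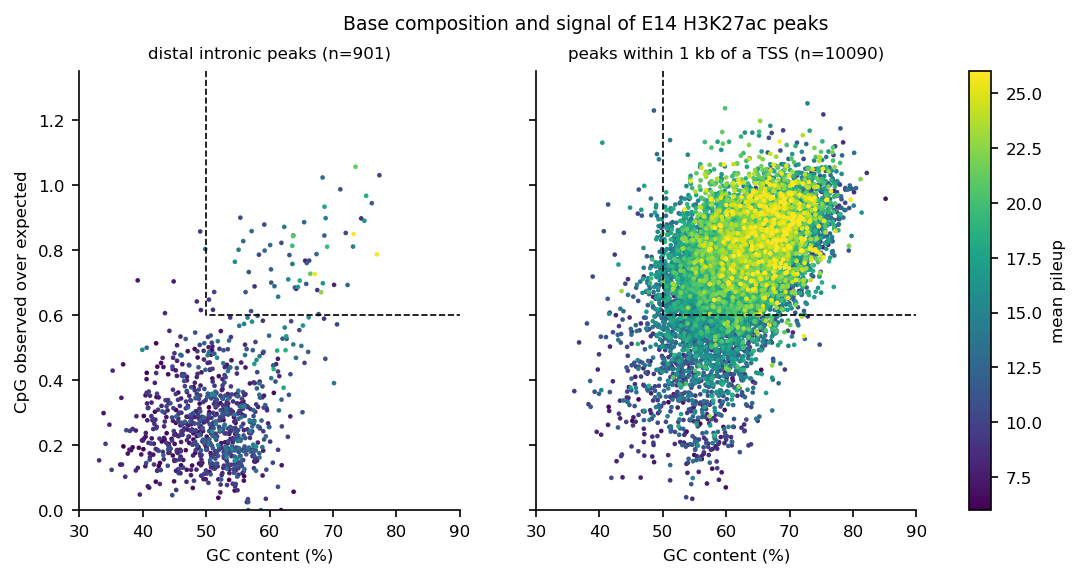
GC content (percent) and ratio of observed to expected CpG of the 901 distal intronic peaks (left) and the 10090 peaks within 1 kb of a TSS (right), one point a peak, coloured by mean pileup. Dashed lines enclose CpG-rich peaks; 62 distal intronic peaks fall there, among them most of those with the highest pileup.

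By pileup the leading members lay in Tcf20, Epo, Gm10406, Gm3629, Gm12446, Eif4e3, Baz2a, Fam172a, Gli2 and Igf2bp1. The Tcf20 member (chr15:82729375-82730253) had a pileup of 26.3 and a fold enrichment of 4.58. The member named for Epo, the erythropoietin gene (chr5:137951172-137952431), reached 26.2 with a fold enrichment of 5.63 and the lowest q of all members, 1.56e-11. It lies 8.06 kb from the nearest TSS in an intron of 47.3 kb of a long gene model.

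The members in Gm10406 (pileup 25.6) and Gm3629 (22.7) lie in predicted genes on chromosome 14. Their implied control levels were 6.4 and 5.97, the former the highest of all members, and their fold enrichments were only 3.59 and 3.39. The member named for Eif4e3, a cap-binding translation factor gene, was a peak of 3003 bp (pileup 20.9). It lies in the third intron of a long gene model of 409 kb. Baz2a, part of a nucleolar chromatin remodelling complex, held a CpG-rich peak in the second intron (20.8, fold enrichment 5.71). Fam172a and Gm12446 held members of 19.8 and 21.4, both in the last intron of the chosen transcript.

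By fold enrichment the order changed, and only Baz2a and Epo were also among the 10 highest by pileup. The leading value was 6.51 in BC042782, a non-coding transcript (chr4:94827760-94828555), followed by 6.23 in 2010111I01Rik, 5.91 in Gm20388, 5.9 in Tns3, 5.89 in Ttc28 and 5.81 in Lmx1a. Lmx1a, a LIM homeodomain factor of the roof plate and ear, held its member (chr1:169732847-169733610) in the fourth intron, 114 kb from the nearest TSS, and had no H3K27ac peak at a TSS of its own. Tspan9, a tetraspanin gene, held the only member of the 10 that was not CpG-rich (3127 bp, fold enrichment 5.65, CpG ratio 0.191). Hsf5 (5.64) completed the 10.

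None of the longest members was CpG-rich, and their pileups ranged from below the median of all members to well above it. They were found in Gnai2, a G protein subunit gene (4909 bp, pileup 14.2), Hmx1, a homeobox gene of the eye and ear (4842 bp, 14.2), Tox (4806 bp, 9.19), Clybl (4733 bp, 8.05) and Mxra7 (4653 bp, 10.2). The Hmx1 and Mxra7 peaks each reached into an exon, with 53 and 182 exonic bases. In all, 78 members (8.66%) had at least 1 exonic base although their midpoint was intronic.

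Within the space that the rule allows, the members were not spread evenly. Bases that meet the rule, here called eligible, made up 712 Mb, or 29.8% of the known bases of chromosomes 1 to 19, and held 1.27 members per Mb. The first intron held 300 members (33.3%, 30.3 to 36.4%) against 24.4% of these bases, and the second intron 189 members (21.0%, 18.4 to 23.8%) against 16.2%. The third intron held 10.9% of the members and 11.3% of the bases. The fourth and later introns held fewer members than bases, 34.9% (31.8 to 38.0%) against 48.1%. Intron numbers refer to 1 chosen transcript of each host gene.

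Members also lay closer to start sites than the eligible bases did. Their median distance to the nearest TSS was 19.9 kb, with quartiles of 10.6 and 43.5 kb. From 5 to 10 kb there were 1.61 members per Mb, from 20 to 50 kb 1.25, and beyond 100 kb 0.562, where 55 members (6.1%, 4.72 to 7.86%) stood against 13.7% of the bases. The most distant lay in Rad51l1, a DNA repair gene (392 kb from a TSS, pileup 10.6, and 295 kb, 6.72), and in Atrnl1 (276 kb, 6.83). Signal hardly varied with distance, with median pileups of 9.52 (9.19 to 10.2) at 5 to 10 kb, 9.2 (8.93 to 9.45) at 10 to 50 kb and 8.8 (8.5 to 9.24) beyond 50 kb.

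Introns of intermediate length were the most densely occupied. Introns of 50 to 100 kb held 1.67 members per Mb and those of 10 to 50 kb 1.55, against 0.839 in introns up to 10 kb and 1.06 in those over 100 kb. Along the host gene the shares came close to those of the bases, with 34.1% against 30.6% in the third nearest the 5′ end and 29.3% against 32.9% in the third nearest the 3′ end. Between chromosomes the density ran from 0.814 per Mb on chromosome 14 to 2.43 on chromosome 19.

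**Figure D3:**
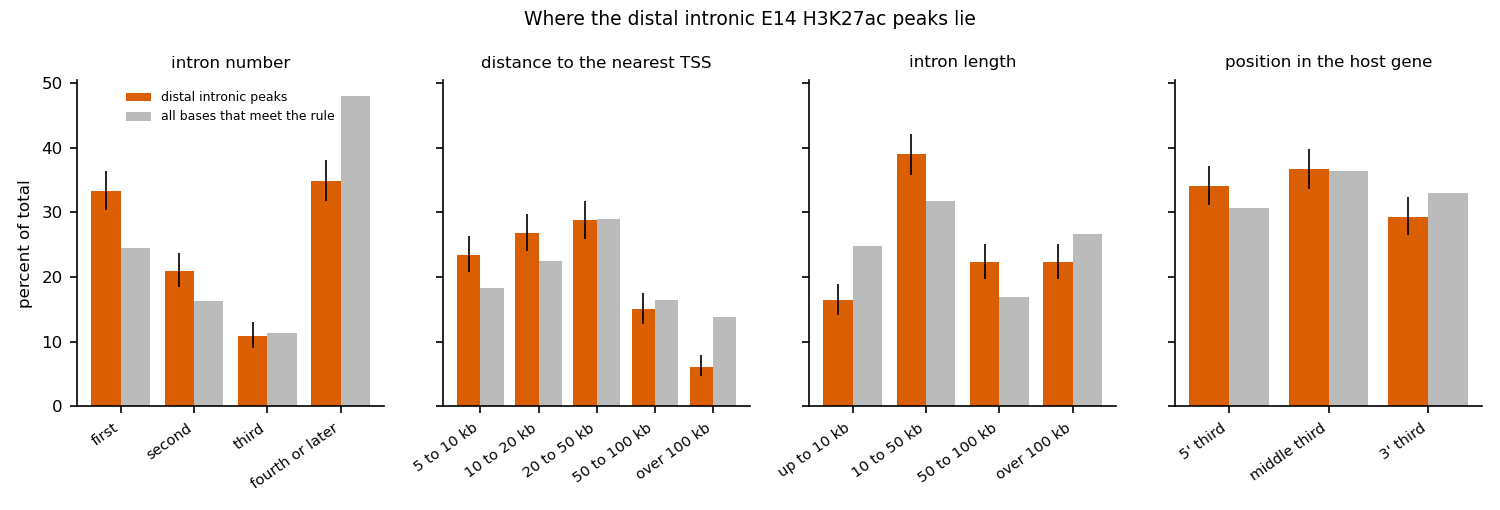
Percent of the 901 distal intronic peaks (orange, with 95% Wilson intervals) and of all bases that meet the rule (grey) by intron number, distance to the nearest TSS, intron length and position in the host gene. The first intron holds 33.3% of the peaks and 24.4% of the bases, and distances beyond 100 kb hold 6.1% and 13.7%.

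The 901 members lay in 646 host genes, of which 611 were protein-coding, 23 lincRNA genes, 11 processed transcripts and 1 a pseudogene. The midpoints of 29 members lay in 2 or more genes, and 1 host was then chosen. Most hosts, 509 (78.8%), held 1 member, 84 held 2, 29 held 3 and 24 held 4 or more. An intron was shared with another member by 254 of them, in 96 introns, and 20 of the 254 lay in 1 intron of the gene model Gm20388. No count expected from intron length was computed. Another peak of any class lay within 10 kb of 24.1% of the members. The share was 43.8% for peaks between 1000 and 5000 bp from a TSS, 25.3% for distal exonic, 18.8% for intergenic and 15.5% for promoter peaks. Members with such a neighbour were longer (median 1008 bp, 911 to 1099) than those without (800.5 bp, 742 to 851).

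Apart from the gene model Gm20388, Msi2 held the most members. It encodes Musashi-2, an RNA-binding protein of neural and other progenitor cells. Its 13 members lay in 4 introns over 335 kb, or 35.4 per Mb of its eligible bases. Pileups were between 8.06 and 12.5 (median 9.73) and fold enrichments between 2.91 and 4.68. The sixth intron alone, of 110 kb, held 7 of the 13, and the longest member of the gene (chr11:88395791-88399639, 3849 bp, pileup 12.5) was one of these. None was CpG-rich, and none lay more than 64.4 kb from a TSS.

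The 7 members of Ptprn2, which encodes a phosphatase-like protein of secretory vesicles, lay in the far part of a gene of 792 kb. The highest (chr12:118391451-118395266) measured 3816 bp with a pileup of 13.5, and 2 others lay 3561 and 5354 bp from it on either side, with pileups of 10.1 and 8.0. Ank2, encoding the neuronal scaffold protein ankyrin-2, held 6 members in its first and second introns, with pileups from 6.59 to 11.8. Celf4, an RNA-binding protein gene of neurons, also held 6, from 7.72 to 13.8, of which 3 were CpG-rich. The 6 members of Msra, a methionine sulfoxide reductase gene, were all weak, from 6.54 to 8.61, and lay in 5 different introns. Msi2, Ank2 and Msra had an H3K27ac peak within 1000 bp of a TSS of their own, whereas Ptprn2 and Celf4 did not.

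The gene model with the most members, Gm20388, is not a single gene in the usual sense. It spans 4.43 Mb of chromosome 8 and holds 156 other annotated genes, 72 of them protein-coding. All of its 20 members lay in its first intron of 4.38 Mb, with pileups from 6.25 to 14.3, and would count as intergenic or as belonging to smaller genes without this model. Without it the members in the first intron fell to 280 of 881, or 31.8%.

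**Figure D4:**
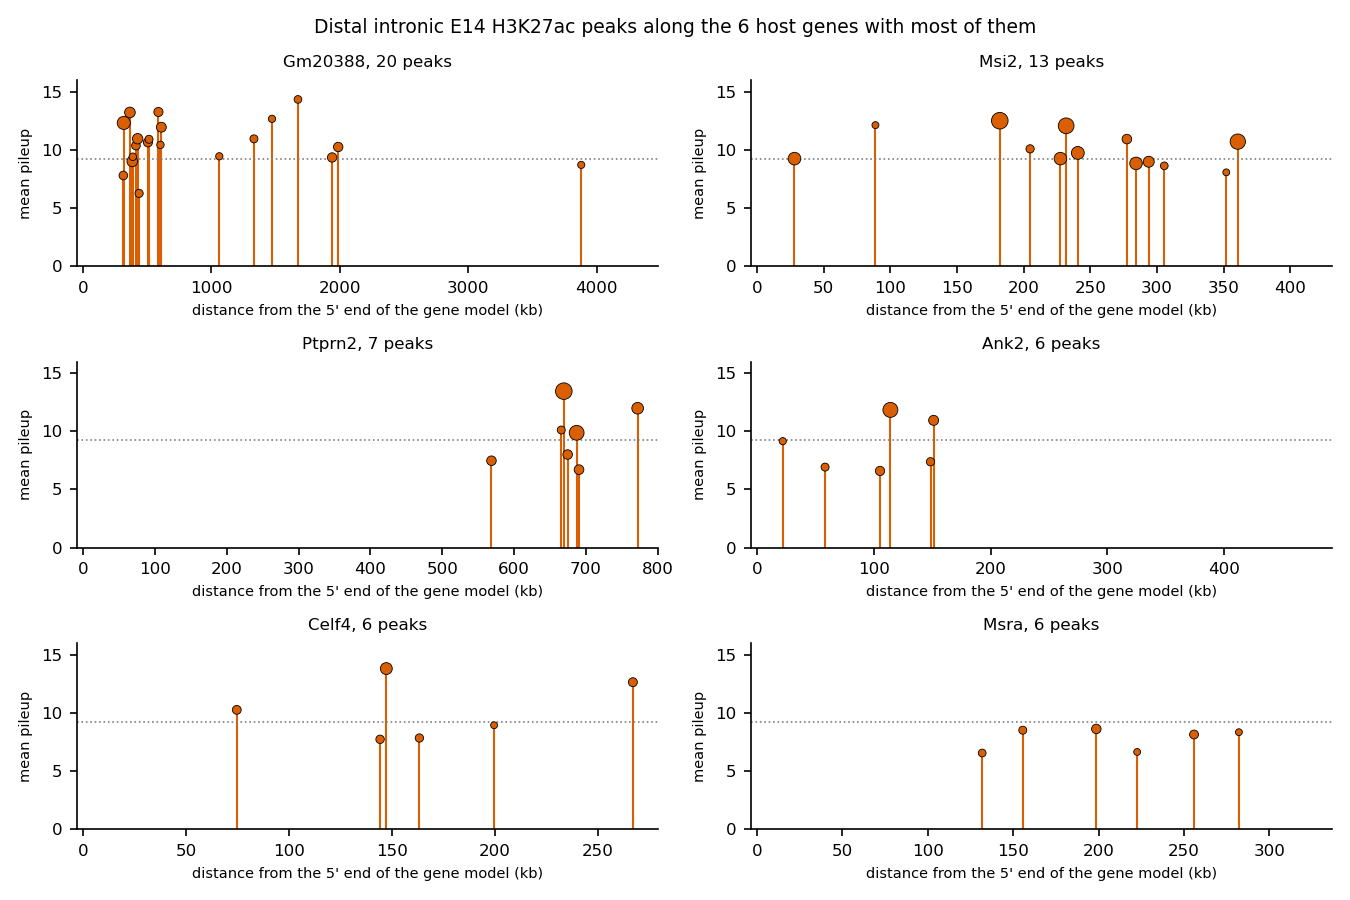
Distal intronic peaks along the 6 host genes that hold most of them. Each point is a peak at its distance (kb) from the 5′ end of the gene model with its mean pileup, point area rises with peak length, and the dotted line is the median of all 901, 9.22; the 13 peaks of Msi2 lie between 8.06 and 12.5.

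Host genes mostly had H3K27ac at their own promoter. Of the 646 hosts of all gene types 500 (77.4%, 74.0 to 80.5%) had a peak within 1000 bp of a TSS of their own. Protein-coding genes with a member, counting each gene over a midpoint, numbered 619, and 490 of these had such a peak. Among the 13108 eligible protein-coding genes, those with at least 1 base that meets the rule, 59.9% had such a peak and 4.72% held a member. A member was held by 490 of 7858 genes with a promoter peak (6.24%) and by 129 of 5250 without (2.46%). Host genes were long, with a median of 128 kb among protein-coding genes that held a member against 31.3 kb among the others, so the comparison was repeated within classes of eligible length. With more than 100 kb of eligible bases, 22.1% (19.7 to 24.6%) of genes with a promoter peak held a member and 10.3% (7.97 to 13.2%) of those without. From 30 to 100 kb the shares were 8.21% (7.09 to 9.49%) and 4.37% (3.3 to 5.77%), and from 10 to 30 kb 2.91% (2.28 to 3.71%) and 1.47% (0.965 to 2.24%). Up to 10 kb they were 0.772% (0.501 to 1.19%) and 0.358% (0.182 to 0.705%), the class in which the intervals overlapped. Members whose host had a promoter peak were not stronger, with a median pileup of 9.19 against 9.27 where it had none. Their median length was 876.5 bp (810 to 916) against 733 bp (625 to 841), and 20.2% against 27.9% met the stricter limits. CpG-rich members had a promoter peak at their host less often, in 32 of 62 (51.6%, 39.4 to 63.6%), than the others, in 686 of 839 (81.8%, 79.0 to 84.2%).

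**Figure D5:**
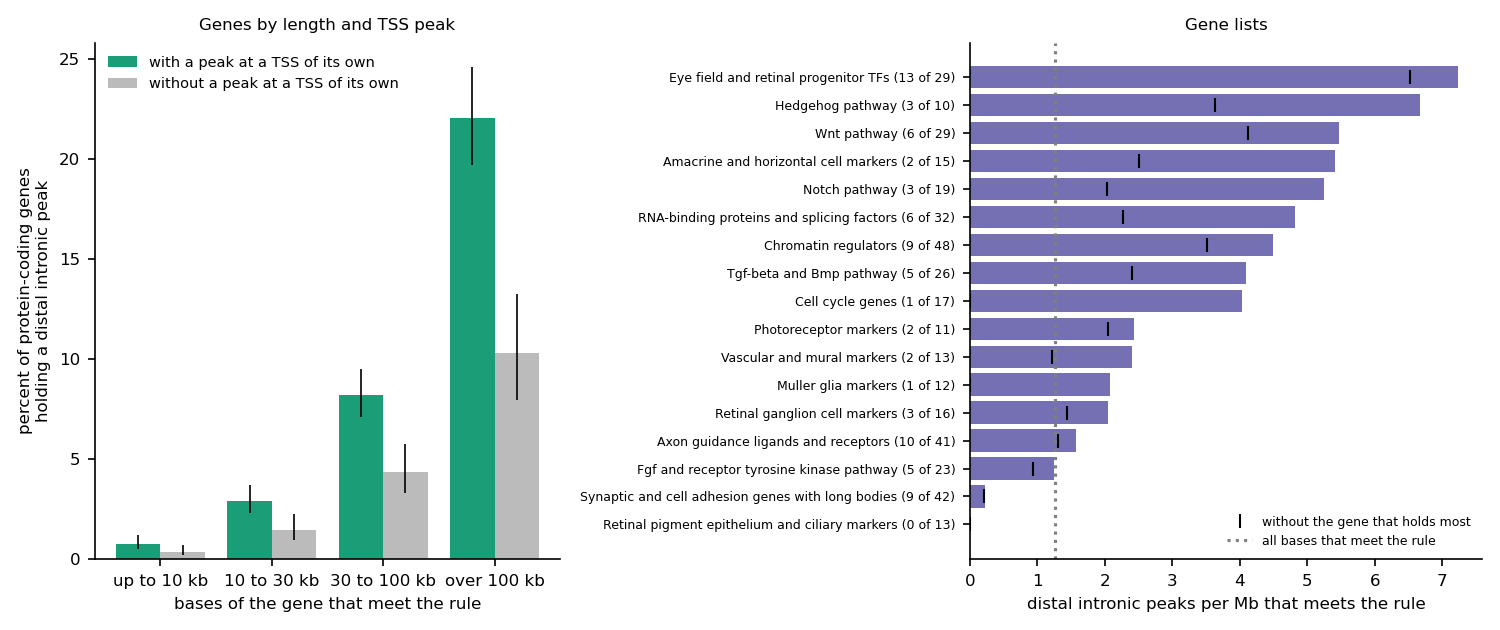
Left, percent of protein-coding genes holding a distal intronic peak by the number of bases that meet the rule (95% Wilson intervals), for genes with and without a peak at a TSS of their own. Right, distal intronic peaks per Mb in gene lists with at least 10 eligible genes, with genes holding a peak of those eligible in brackets and black ticks for the density without the gene that holds most; 13 of 29 eye field and progenitor factors hold one, and the dotted line marks 1.27 per Mb over all bases.

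Gene lists that fit the tissue were read against 2 backgrounds, the 4.72% of eligible protein-coding genes that held a member and the 1.27 members per Mb. These are descriptions, since list genes differ in length from other genes, and the lists were written with earlier results of these data known. The 29 eligible eye field and retinal progenitor transcription factor genes had a median length of 116 kb, and 22 had a promoter peak. Of these 29 genes 13 held a member (44.8%, 28.4 to 62.5%), with 22 members at 7.23 per Mb. The highest were in Casz1, a zinc finger factor of progenitor competence (pileups of 10.01 and 12.01, the former over 3961 bp), Tbx2, a dorsal retina factor (11.8), and the TALE homeobox genes Meis2 (10.9 and 8.8) and Pbx3 (10.9). None exceeded 12.01, so none came near the 10 highest members.

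Signalling pathways held members at component genes of several kinds. In the Hedgehog list 3 of 10 eligible genes held 5 members. They were the transcription factor Gli2, with pileups of 19.7, 12.2 and 7.79, the receptor Ptch1 (8.52) and the co-receptor Cdon (7.13). The middle Gli2 member (chr1:120930006-120931162) had a fold enrichment of 5.57 without being CpG-rich. In the Wnt list 6 of 29 held 11 members. The co-receptor Lrp5 had 13.4 over 3344 bp, the secreted antagonist Dkk3 9.6 and 12.1 over 3380 and 3020 bp, and the nuclear effectors Tcf7l1 and Tcf7l2 up to 10.3 and 9.39.

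In the Notch list 3 of 19 held 7 members, 5 of them in the co-activator Maml3 (6.53 to 13.3), 1 in the receptor Notch1 (11.8) and 1 in Maml2 (10.2). Without Maml3 the density of this list fell from 5.25 to 2.03 per Mb. In the Tgf-beta and Bmp list 5 of 26 held 7, led by the inhibitory Smad6 (13.6), the co-repressor Ski (11.9, 9.05 and 7.24), the receptor Bmpr1b (10.8) and the inhibitory Smad7 (10.4). The Fgf and receptor tyrosine kinase list had 5 of 23, at 1.25 per Mb, with Igf1r at 13.4 and 7.84, Fgfr1 at 7.55 and Egfr at 6.71. Both members counted for Fgfr2 (16.7 and 9.79) lie in Tacc2 as well. The Fgfr2 gene model also gave 2286025 bp of the 5.59 Mb of eligible bases in this list.

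Chromatin and RNA-binding genes held members over a wide range of pileup. Of 48 chromatin regulators 9 held 18 members (4.49 per Mb). Besides Tcf20 these included Arid1b, with 5 members from 6.95 to 18.6, and the histone demethylase Kdm2a (15.5, fold enrichment 5.56), while Arid1a (10.4) and Smarcc1 (8.67), subunits of the BAF complex named after their values were seen, were lower. Of 32 RNA-binding and splicing genes 6 held 23, with Igf2bp1 at 18.6, the microRNA effector Tnrc6b at 15.5 (32.0% GC in the central 300 bases), Celf4 and Msi2 as above and the neuronal Elavl3, also named after its value was seen, at 7.12. Without Msi2 the density of this list fell from 4.82 to 2.27 per Mb. Of 5 eligible proneural genes and their repressors 2 held a member, Tcf12 (9.64 and 7.44) and Tcf4 (6.79), both partners of proneural factors. Of 4 nuclear factor I genes only Nfic did (13.8), and of 17 cell cycle genes only Ccnd3 did, a D cyclin with 3 members from 9.61 to 11.7 in its first intron.

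Long neuronal genes offered the most eligible bases of these lists and held few members for them. The 42 eligible synaptic and adhesion genes with long bodies, of 995 kb at the median, had 40.1 Mb of eligible bases and 9 members, or 0.224 per Mb, the lowest density among the lists that held any member. Each of the 9 holders had 1, with Ctnnd2 at 11.8, Odz4 at 11.0, Cdh2 at 9.45 and Nrxn3 at 8.67. Axon guidance genes held 16 members in 10 of 41 genes, at 1.57 per Mb, with Unc5a at 13.8, Ephb2 at 12.8 and 8.18, Epha3 at 12.7 and Dscaml1 at up to 10.8.

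Lists of cell type markers were checked against the labelled tissue. Ganglion cell markers held a member in 3 of 16 eligible genes, Ebf3 (12.4), Gap43 (11.2) and Ebf2 (8.88). Amacrine and horizontal cell markers did so in 2 of 15, Bcl11b (15.97) and Meis2, photoreceptor markers in 2 of 11, Thrb (9.17) and Rorb (8.49), and Müller glia markers in 1 of 12, Dkk3. Meis2 is also on the list of progenitor factors and Dkk3 on that of the Wnt pathway. None of 13 pigment epithelium and ciliary, 5 lens or 9 blood and microglia markers held a member. A promoter peak was found at 2 of these 13 pigment epithelium and ciliary genes, 3 of the 5 lens genes and none of the 9 blood and microglia genes. Vascular and mural markers held 2 in 13, Kdr (9.19) and Eng (6.53), and 2 of these 13 genes had a promoter peak. With 4.72% of all eligible genes holding a member, a count of 0 in lists this short says little.

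The sequence of the members set them apart from promoters and less from intergenic peaks. Their median GC content was 51.6% (51.1 to 52.3%), against 42.1% over all bases that meet the rule, and 828 members (91.9%) lay above that value. Intergenic peaks had 53.4% and promoter peaks 61.6%. Their median CpG ratio was 0.271 (0.257 to 0.282), against 0.381 and 0.758. The raw rate of TAATTA was lower in the members than in all bases that meet the rule (0.257 per kb against 0.41). The rates of CAGCTG (0.881 against 0.417), GGGCGG (0.7 against 0.0978) and ACAAAG (1.28, or 1.26 times that of these bases) were higher.

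Of the members, intergenic, promoter and near-promoter peaks, the members had the highest share of windows with each motif except CAGCTG, the GC box and the nuclear factor I palindrome. The margin over intergenic peaks was small for the motifs other than TAATTA and CAGATG. In the central 300 bases TAATTA was found in 7.21% of the members (5.7 to 9.09%), 4.69% of intergenic, 1.1% of promoter and 2.1% of all peaks. CAGATG was found in 27.6% (24.8 to 30.6%), 21.0%, 9.35% and 12.4%. Near-promoter peaks, from 1000 to 5000 bp from a TSS, held these motifs in 4.95% and 19.8%. The SOX core ACAAAG was found in 33.1% (30.1 to 36.2%), 32.5%, 12.6% and 16.8%. CAGCTG was found in 24.0%, 23.1%, 15.7% and 17.6%, and ACAATG in 17.0%, 15.6%, 5.22% and 7.47%. GGATTA was found in 8.1% of the members, 7.07% of intergenic and 4.11% of all peaks, and TGACTCA in 4.99%, 4.47% and 2.58%. The nuclear factor I palindrome was found in 0.999% (0.526 to 1.89%) of the members, 1.19% of intergenic and 0.788% of all peaks. The GC box ran the other way, with 17.98% of the members, 29.6% of intergenic and 63.4% of promoter peaks. A match is a string of letters and not evidence of binding.

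To take base composition out of the comparison, all 6-letter words without CG, with both strands merged, were ranked among words of equal GC content by their rate in the 839 members that were not CpG-rich relative to all bases that meet the rule. Among 450 words with the same number of G and C letters, ACAAAG ranked 1, at 1.3 times its rate in these bases where the median word stood at 0.721. Among 480 words of the next higher GC content CAAAGG, which overlaps the same SOX and TCF core, ranked 1 at 1.5 (median 1.0). Both also ranked 1 in the 1047 intergenic peaks that were not CpG-rich, whereas in the 1812 such promoter peaks they ranked 9 and 31. CAGCTG ranked 2 of 258 (2.17, median 1.43) and CAGATG 44 of 480 (1.23).

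The homeodomain core TAATTA ranked 2 of 36 words made of A and T alone, at 0.643 against a median of 0.471, behind a run of A. Of 192 words with 1 G or C, the 3 that ranked highest, noticed after the ranking, hold TAAT on 1 strand, and the ranks of the other words with TAAT were not summarised. They were CAATTA, at 0.826, then AATTAG, at 0.814, and then TAATGA, at 0.801, against a median of 0.572. In the intergenic peaks that were not CpG-rich these ranked 11, 8 and 18, and in such promoter peaks 80, 49 and 104. GGATTA, the OTX and CRX word, ranked 267 of 450 in the members. The ranks describe word use in 1 set of regions and carry no test.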

How the data were processed

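H3K27ac ChIP-Seq of E14 retina was analysed from 1 deposited list of broad peaks. The authors aligned reads with Bowtie2 to mm9, used those that mapped uniquely, pooled 2 replicates and, per the file header, ran MACS 2.1.0.20140616 against 1 isotype control (q cutoff 0.05, broad cutoff 0.1, 1 tag per position). The deposited pileup is a signal, the mean coverage over each region with the ChIP library scaled to the control. The fold enrichment deposited by the authors is a ratio of the pileup to the local background, both with a pseudocount of 1, from which the control level was computed back. The deposited −log10 of p and of q are means over each region. Depth was 113543038 ChIP and 9210563 control tags, so the control limits precision.

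Midpoints were placed on GENCODE vM1 (chromosomes 1 to 19). Each member was given 1 host gene, protein-coding before others, and 1 transcript. The background was every base that meets the rule. Sequence came from the mm9 genome, and 549 of 553 list genes were matched. The genes named were the 10 highest members by pileup and by fold enrichment, the 5 longest, the 3 farthest from a TSS, 3 on each side of the distance limit, those of the hosts with most members, and up to 4 hosts per list. Some of these are not reported here, and a few other genes were named after their values were seen, as stated beside them. The members, lists and rules were chosen with earlier results of these data known. On simulated data all 1200 planted peaks received their class. Alternatives covered the stricter limits, the TSS distance, the annotation, joined peaks, chromosome X, 1 peak per host and the choice of transcript and promoter window. Python 3.11.15, numpy 2.4.6, pandas 2.3.3 and scipy 1.17.1 were used.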

Additional observations from a re-analysis of the deposited data

How the results depend on the processing

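Of 90 values recomputed under alternatives 70 kept within the main interval (for counts, within a factor of 1.5) and 20 did not. With the stricter limits (fold enrichment at least 4, q at most 0.001) there were 196 members in 176 host genes, with a median length of 1050 bp, fold enrichment of 4.57, pileup of 11.965 and GC content of 53.5%; 38.3% lay in the first intron and 73.9% of hosts had a peak at a TSS of their own. A minimum TSS distance of 1000 bp gave a median pileup of 9.485, a GC content of 52.6%, 38.1% in the first intron and a median distance of 12236 bp. The median distance was 15462 bp with a minimum of 2000 bp, 27765 bp with 10000 bp, 23392 bp with protein-coding genes only and 17661 bp with 1 peak per host gene, where the median pileup was 9.51 and the fold enrichment 3.73. The share in the first intron was 43.8% when any transcript could give it and 37.1% with the transcript of the shortest intron. No share of bases was computed for these choices, so they cannot be set against the 24.4% of the main choice. Joining peaks within 1000 bp changed nothing, as the smallest gap between peaks was 1253 bp. Leaving out Gm20388, an alternative chosen after seeing the data, moved none of the 6 values computed without it past these bounds. No paired analysis was possible because the list pools both replicates. The depth of the control, 9210563 tags, limits the weakest members, and no replicate error can be given.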
